A study of Mus musculus with 7 samples.

Results

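The cholesterol synthesis genes Hmgcs1, Idi1, Fdps, Sqle and Lss, which encode enzymes, and Srebf2 and Insig1, which encode regulators of that pathway, were examined for CTCF and cohesin binding in mouse liver. These 7 genes were taken by name, and every deposited peak within the span of a gene or 50 kb to either side of it was counted as belonging to that gene. No receptor for cholesterol uptake was among the genes examined. Of the 7 genes, 6 could be placed on the chromosomes that the peak lists cover, among 22359 protein-coding genes in all. Their windows held 75 of 76683 CTCF peaks, 64 of 67369 Rad21 peaks and 40 of 52436 sites of the list of classed CTCF sites.

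All samples were livers of male CD-1 mice (strain Crl:CD1(ICR)) of 8 weeks of age, with no treatment named in the labels. CTCF was precipitated in 4 libraries and Rad21, a subunit of cohesin, in 3 libraries. The data are chromatin immunoprecipitation sequencing (ChIP-seq): DNA crosslinked to a protein is pulled down with an antibody to it and sequenced, and a peak is a place where the fragments pile up. There was 1 pooled peak list per factor. No value below therefore has a replicate error, no test between groups could be made, and percent intervals are 95% Wilson intervals that cover counting error only. Whole liver holds several cell types, and more bound copies per cell and more bound cells cannot be told apart in these lists. The lists hold binding alone, so neither the level of any gene nor the cell types of the tissue were measured here.

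CTCF is a zinc-finger protein that binds a long, asymmetric DNA motif. Cohesin is a ring-shaped complex that extrudes loops of chromatin until it meets bound CTCF, and loops are most often held between CTCF motifs that point towards each other (convergent motifs). Anchors of topologically associating domains (TADs, the large domains within which contacts are most frequent) and anchors of shorter loops inside them (intra-TAD anchors) most often carry both proteins and are here called loop anchors. CTCF sites with cohesin that are not anchors are called other CAC sites (cohesin-and-CTCF), CTCF sites without cohesin are lone CTCF sites, and Rad21 peaks without a CTCF peak are called CNC peaks (cohesin-non-CTCF). Cholesterol is built from acetyl-CoA in the liver by a chain of enzymes whose genes are switched on together when sterols are scarce. SREBP-2, the product of Srebf2, is the transcription factor that switches them on, and Insig1 holds its precursor in the endoplasmic reticulum when sterols are plentiful.

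Each of the 6 placed genes had a CTCF peak and a Rad21 peak within 1 kb of a transcription start. Over all protein-coding genes, 55.1% had a CTCF peak there, 52.3% had a Rad21 peak and 50.1% had both. None of the 6 genes had a Rad21 peak at a start that lacked an overlapping CTCF peak (0 of 6, upper bound 39.0%), against 8.94% of all genes, so that count cannot be told apart from the background. Peaks were called co-bound when they shared at least 1 bp.

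The strength of a peak is given as its deposited score, which is 10 times the −log10 of its q-value, and as the number of DNA fragments that cover its summit. That number was recovered from the deposited fold and p-value, and it came out whole, within 0.05 of a fragment, for every peak of the 6 windows.

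At the start of Sqle, which encodes squalene epoxidase, a rate-limiting step late in the pathway, the CTCF peak scored 2770 with 342 fragments at its summit. It lay at chr15:59146107-59146960 (mm9), covered the start, and had been classed as a TAD anchor. The Rad21 peak over the same start scored 179 with 51 fragments, which is 0.149 Rad21 fragments per CTCF fragment. At the start of Srebf2 a CTCF peak at chr15:81977714-81978629 scored 2563 with 338 fragments, with its summit in an intron 597 bp from the start, and the overlapping Rad21 peak scored 180 with 55 fragments. These 2 starts thus paired CTCF scores above those at 81.7% of the 12321 genes with a CTCF peak at a start with Rad21 scores close to each other and below the median of 256 over the 11692 genes with a Rad21 peak at a start.

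At the start of Lss, which encodes lanosterol synthase, the enzyme that closes the sterol rings, the CTCF peak at chr10:75993666-75994630 scored 1519 with 198 fragments. It overlapped a Rad21 peak that scored 347 with 69 fragments, its summit 266 bp downstream of the start, and another that scored 155, its summit 486 bp upstream. At the start of Idi1, the isomerase of isopentenyl diphosphate, CTCF scored 395 with 90 fragments and Rad21 scored 250 with 52 fragments. At the start of Fdps, which makes farnesyl diphosphate, CTCF scored 373 with 75 fragments and Rad21 scored 175 with 48 fragments. A weaker pair, with scores of 76 and 73, lay in an intron of Fdps 865 bp and 886 bp from the start. The CTCF scores at Idi1 and Fdps were below the median of 533 over genes with a CTCF peak at a start.

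By the strongest peak at each start, Insig1 had the lowest CTCF score and the highest Rad21 score of the 6 genes. Its CTCF peak, at chr5:28397270-28398319, scored 141 with 52 fragments and was not in the class list. It overlapped a Rad21 peak that scored 510 with 125 fragments, its summit 751 bp upstream of the CTCF summit. A further Rad21 peak over the start scored 236 with 84 fragments, its summit 65 bp from the CTCF summit. With the strongest overlapping Rad21 peak taken at each site, Insig1 had 2.40 Rad21 fragments per CTCF fragment, from summits 751 bp apart. The nearer peak of 84 fragments would give a lower ratio. The 2 pairs of Fdps had 0.64 and 0.943, Idi1 had 0.578, Lss 0.348, Srebf2 0.163 and Sqle 0.149. The median over these 7 start-site CTCF peaks was 0.578. Over all 12783 co-bound CTCF peaks at starts of protein-coding genes the median was 0.618, with quartiles of 0.37 and 0.962. Sqle, Srebf2 and Lss lay under the lower quartile and Insig1 lay above the upper quartile. These ratios compare separate pooled lists of unequal depth, so only their order among sites can be read.

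**Figure D1:**
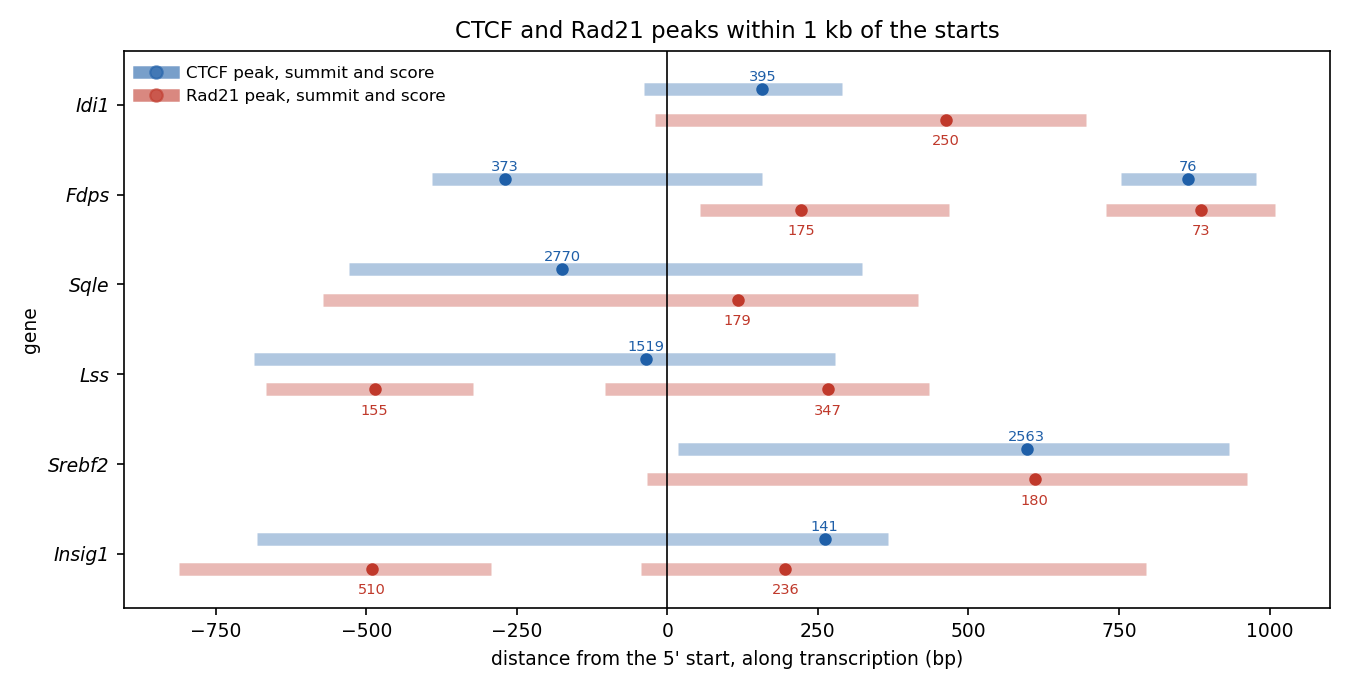
CTCF (blue) and Rad21 (red) peaks within 1 kb of the start of each of the 6 placed genes, by distance from the 5′ start along transcription in bp. Bars span each peak, dots mark summits and numbers are deposited scores; CTCF scores ran from 76 to 2770 and Rad21 scores from 73 to 510, and at Idi1, Fdps, Sqle and Lss the strongest Rad21 summit lay over 200 bp downstream of the CTCF summit.

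CTCF and Rad21 summits were apart at most of these starts. The strongest Rad21 summit lay downstream of the CTCF summit by 492 bp at Fdps, 305 bp at Idi1, 301 bp at Lss and 292 bp at Sqle, and by 13 bp at Srebf2. At the weaker Fdps pair the summits were 21 bp apart, and at Insig1 the strongest Rad21 summit lay 751 bp upstream. The summit of the weaker Rad21 peak that overlapped the Insig1 CTCF peak lay 65 bp from the CTCF summit. A Rad21 summit over 200 bp downstream of the CTCF summit was thus seen at 4 of 7 member start sites (57.1%, interval 25.0% to 84.2%). It was seen at 1497 of 12783 co-bound sites at starts over all protein-coding genes (11.7%). In either direction, 22.1% of those sites over all genes had summits over 200 bp apart. Away from any start the summits in the 6 windows were a median of 46 bp apart (n = 38). Of these 38 sites, 9 (23.7%, interval 12.99% to 39.2%) had summits over 200 bp apart, against 5.69% of all co-bound sites elsewhere. Some of the 9 shared a Rad21 peak, as the CTCF peaks that scored 90 and 82 upstream of Insig1 did, so the interval is too narrow. All but a site in an intron of Srebf2 with a CTCF score of 1510 had CTCF scores from 35 to 124. Wide separation was therefore seen away from starts too. None of the 13 loop anchors of the windows that lay away from a member start had summits more than 96 bp apart. The CTCF scores of these anchors were at least 780, and whether peak strength accounts for the contrast was not tested. The distance between summits was chosen as a measure after the values were seen.

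The pairing at the starts depended on how overlap was defined. When a CTCF summit within 100 bp was required, 5 of the 6 genes had a start-site Rad21 peak that lacked CTCF, all but Srebf2, against 27.0% of all protein-coding genes. When the peaks had to overlap by 50% of each, 4 genes did (Fdps, Insig1, Lss and Idi1), against 20.5%. The number of genes with a CTCF peak and with a Rad21 peak at a start was 6 with a zone of 500 bp, 1 kb or 2500 bp, against 47.7%, 50.1% and 55.2% of all genes with both.

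Of the 7 start-site CTCF peaks, 5 were in the class list, which holds peaks of the pooled list that were also found in at least 2 replicate samples. Those of Fdps and Srebf2 had no CTCF motif in that list. The motifs of the other 3 starts are shown, as they are what distinguishes these starts from those without a motif. Each is written 5′ to 3′ on the strand of the motif, with the 19 bases of the CTCF motif in capitals.
Sqle start, chr15:59146267-59146285, plus strand, deposited motif score 12.8: cgtttGAGCCACCAGGAGCCACCAagagt
Lss start, chr10:75994195-75994213, minus strand, deposited motif score 13.4: ccgcgAGGGCACCAGGGGGCGTGGctgcg
Idi1 start, chr13:8884936-8884954, plus strand, deposited motif score 13.1: tcagcTGTCCACTGGGAGTCGCCAacacc
The Sqle motif lay 360 bp and the Lss motif 148 bp upstream of the 5′ start, and the Idi1 motif lay 93 bp downstream, in the 5′ untranslated exon. The motifs of Sqle and Idi1 pointed along transcription and that of Lss against it. The share of sites without a motif was 33.3% over 10985 co-bound class-list sites at starts and 11.6% over 31816 elsewhere. All 25 class-list co-bound sites of the windows that lay away from any start had a motif.

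The authors flagged overlap with public peaks of Stag1 and Stag2, the alternative subunits of cohesin, and of topoisomerase Top2b. At the 5 classed start sites of the members the Stag2 flag was set at 5 and the Stag1 flag at 1, that of Lss. Away from any start the Stag1 flag was set at 23 of 25 classed co-bound sites in the same windows. Over all protein-coding genes it was set at 64.9% of classed co-bound sites at starts and at 87.0% elsewhere, so a lower share at starts was general. The members' share at starts (20%, interval 3.62% to 62.4%) was lower than that background too, with 64.9% just above the interval, but rests on 5 sites. The Top2b flag was set at 4 of the 5 start sites, all but that of Srebf2. Over all such sites at starts the Stag2 flag was set at 96.6% and the Top2b flag at 74.2%, so the members' counts for these flags were near the background.

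The promoter stretches of Insig1, Lss, Idi1 and Srebf2 are shown because peaks lay over them, and to place the letters that SREBP-2 and its usual partner NF-Y are known to read. RefSeq promoters (250 bases before the start to 50 after it, build GRCm38.p6) matched 5 of the 7 genes by symbol. Each stretch holds the 250 bases upstream of the RefSeq start on the coding strand. All 4 matched the mm9 assembly letter for letter at a single place, from which the coordinates come. Capitals mark CACGTG (the E-box, read by bHLH proteins), CCAAT (the NF-Y box, or ATTGG on the other strand), and GGGCGG (the GC box, read by Sp1, or CCGCCC on the other strand).
Insig1, chr5:28397702-28397951, plus strand: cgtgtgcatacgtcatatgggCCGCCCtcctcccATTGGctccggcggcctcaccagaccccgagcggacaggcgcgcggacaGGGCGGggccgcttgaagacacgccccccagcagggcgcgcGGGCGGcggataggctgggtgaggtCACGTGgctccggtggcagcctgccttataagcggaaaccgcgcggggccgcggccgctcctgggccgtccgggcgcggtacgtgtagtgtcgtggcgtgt
Lss, chr10:75994100-75994349, plus strand: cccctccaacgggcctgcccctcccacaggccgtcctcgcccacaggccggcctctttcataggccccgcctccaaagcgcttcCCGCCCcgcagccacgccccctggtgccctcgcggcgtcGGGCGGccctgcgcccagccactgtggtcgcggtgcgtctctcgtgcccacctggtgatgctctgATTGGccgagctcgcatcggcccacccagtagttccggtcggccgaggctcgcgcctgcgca
Idi1, chr13:8884602-8884851, plus strand: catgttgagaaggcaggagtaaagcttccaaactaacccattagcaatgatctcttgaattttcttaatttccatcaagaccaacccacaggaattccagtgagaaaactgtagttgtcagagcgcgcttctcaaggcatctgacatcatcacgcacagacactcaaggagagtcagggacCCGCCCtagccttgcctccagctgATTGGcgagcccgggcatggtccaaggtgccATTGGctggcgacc
Srebf2, chr15:81977449-81977698, plus strand: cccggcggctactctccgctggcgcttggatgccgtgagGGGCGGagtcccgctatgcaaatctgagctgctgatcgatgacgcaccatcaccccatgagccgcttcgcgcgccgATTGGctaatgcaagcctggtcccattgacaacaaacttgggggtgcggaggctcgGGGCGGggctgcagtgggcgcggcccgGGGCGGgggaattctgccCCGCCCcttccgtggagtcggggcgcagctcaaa
The CTCF peak at the start covered all 250 bases of this stretch for Insig1 and Lss, 38 bases for Idi1 and 0 bases for Srebf2. Rad21 peaks covered 44 bases for Insig1, 102 for Lss, 20 for Idi1 and 37 for Srebf2. In 300-base promoters, CCAAT was present in 5 of 5 matched genes, the fifth being Hmgcs1, and in 37.4% of 32851 promoters. GGGCGG was present in 5 of 5 genes and in 35.7% of promoters, and CACGTG in Insig1, 101 bases before its start, and in 7.15% of promoters. The sterol regulatory element TCACNCCAC was found in 1 of 5 genes, Hmgcs1, 137 bases before its start, and in 1.24% of promoters. The shorter TCACCCCA, searched after the letters had been seen, was in Hmgcs1 and in Srebf2, 162 bases before its start, and in 1.56% of promoters. These matches describe letters in this window and not bound sites, and both strands were searched.

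CTCF peaks numbered 21 around Srebf2, 15 around Insig1, 14 around Fdps, 11 around Lss, 8 around Sqle and 6 around Idi1. Per 100 kb of window this was 13.99 for Insig1, 13.3 for Srebf2, 12.9 for Fdps, 8.76 for Lss, 6.89 for Sqle and 5.62 for Idi1, against a median of 5.58 and an upper quartile of 9.17 over all protein-coding genes. Insig1, Srebf2 and Fdps lay above that quartile, and Idi1 was at the median. Of the CTCF peaks, 9 of 15 around Insig1, 8 of 21 around Srebf2 and 6 of 14 around Fdps were not in the class list. The median CTCF score was 90 around Insig1, 254 around Fdps and 368 around Srebf2, against 321 over all CTCF peaks. Whether these windows are also dense in stronger peaks, relative to all genes, was not tested. Rad21 peaks numbered 17 around Srebf2, 14 around Insig1, 14 around Fdps, 9 around Lss, 6 around Sqle and 4 around Idi1. Per 100 kb this ranged from 3.75 for Idi1 to 13.1 for Insig1, against a median of 4.59.

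**Figure D2:**
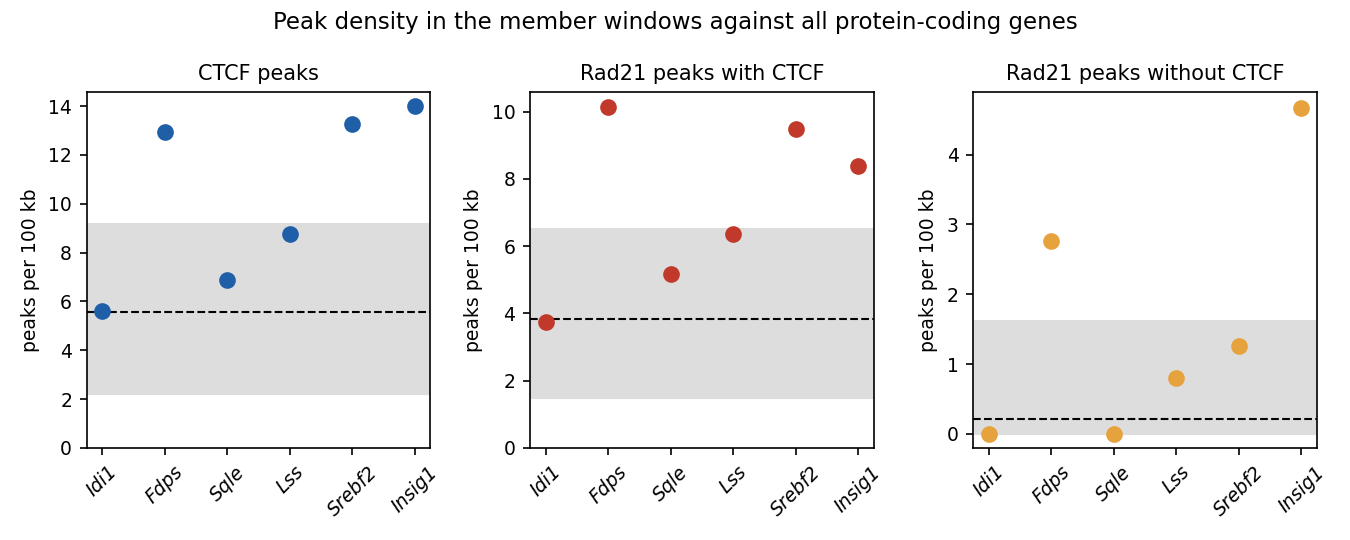
Peaks per 100 kb of window for the 6 placed genes, for CTCF, for Rad21 with CTCF and for Rad21 without CTCF. The dashed line is the median and the grey band the quartiles over 22359 protein-coding genes; Fdps, Srebf2 and Insig1 lay above the band for CTCF, and Insig1 and Fdps lay above it for Rad21 without CTCF.

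The Insig1 window, with 13.99 CTCF peaks per 100 kb, overlapped no other protein-coding gene. That of Srebf2 overlapped 5 others, those of Fdps and Lss 4 each, that of Idi1 3 and that of Sqle 2. Of the 75 CTCF summits, 36 were intergenic, 25 lay in introns, 8 in coding exons and 6 in untranslated exons. Inside the member genes themselves lay 14 CTCF and 15 Rad21 summits.

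**Figure D3:**
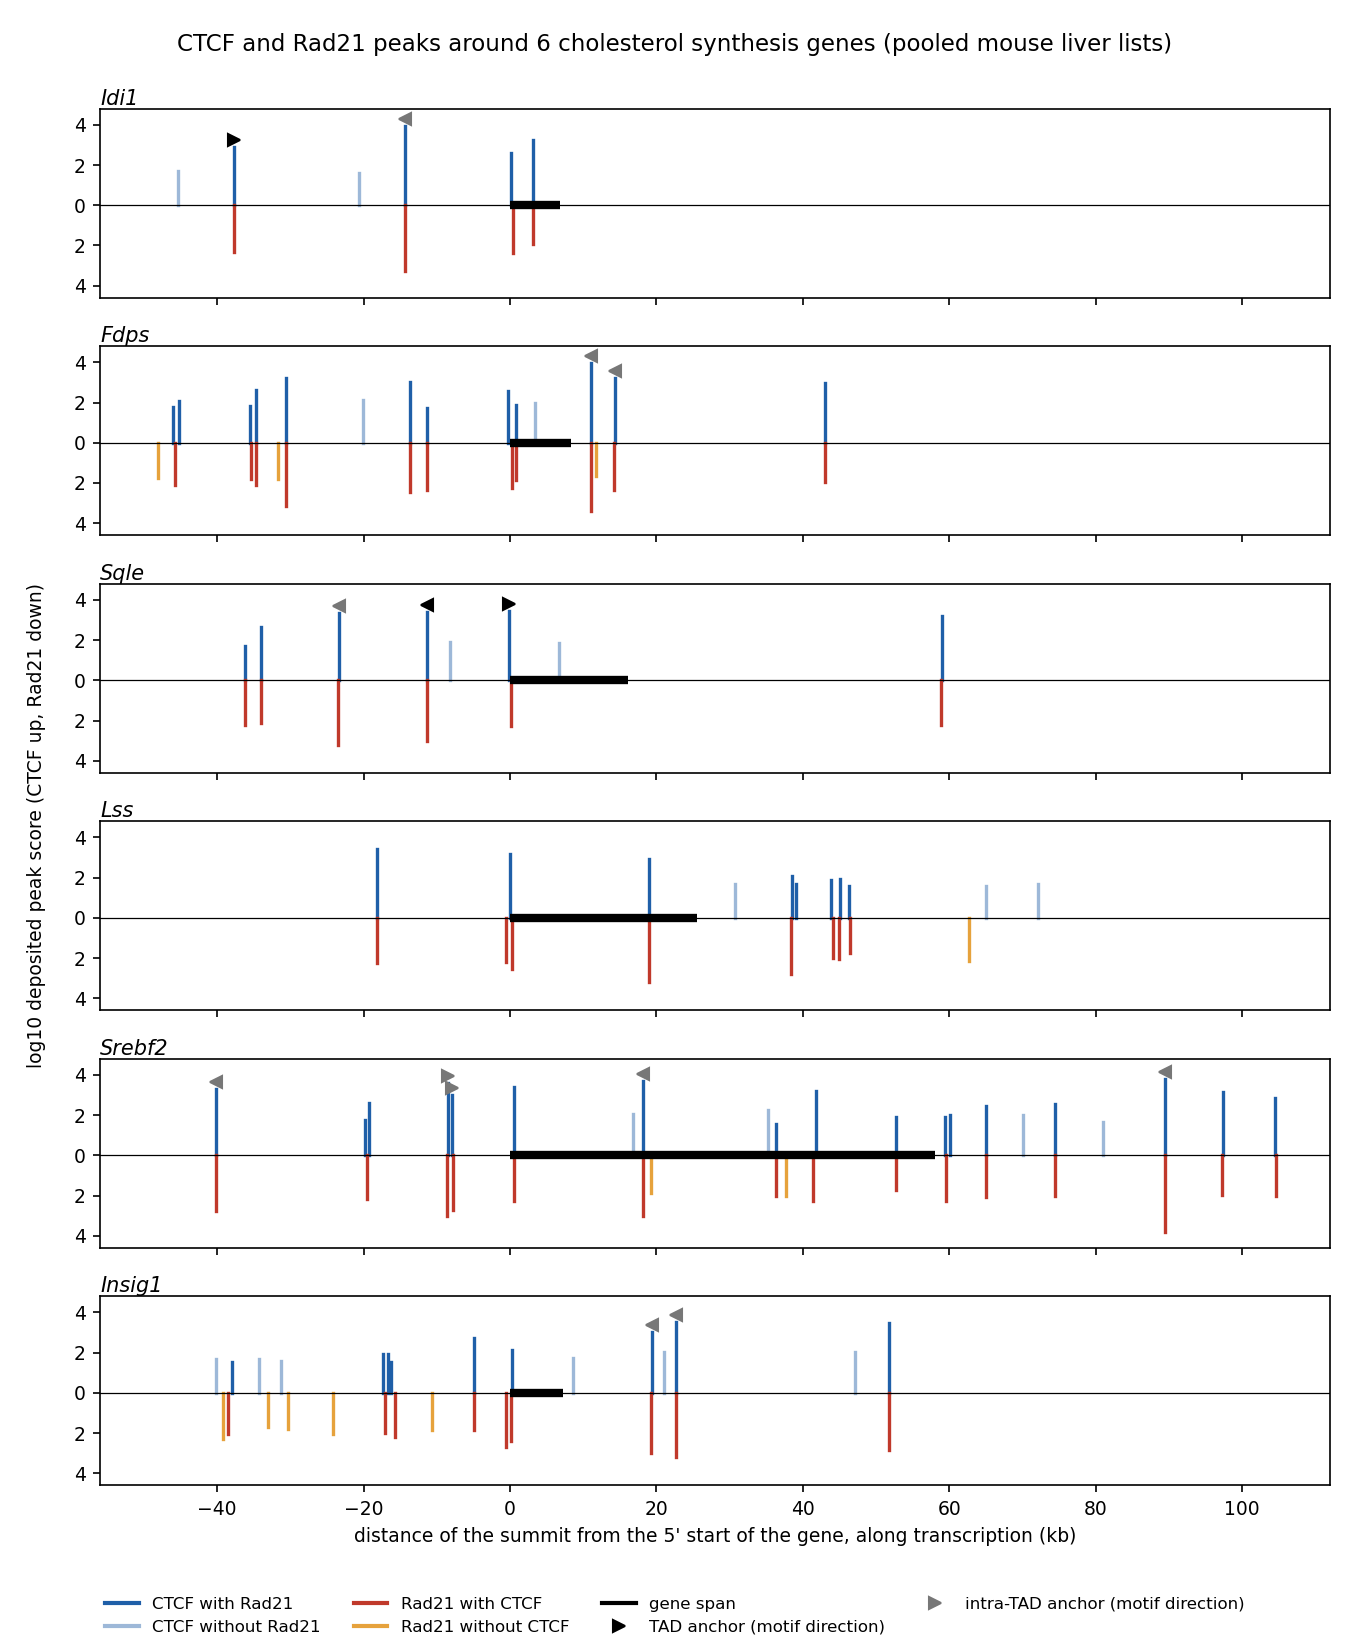
Every CTCF peak (up) and Rad21 peak (down) of the 6 windows, by distance of the summit from the 5′ start along transcription in kb; height is log10 of the deposited score and the black bar is the gene. Triangles mark loop anchors and point along the CTCF motif; Lss had 0 anchors, Srebf2 had 5, and 5 of the 11 Rad21 peaks without CTCF lay upstream of Insig1.

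Loop anchors were found in 5 of the 6 windows, 14 in all, against 65.1% of protein-coding genes with an anchor in the window. Of these, 11 were intra-TAD anchors and 3 were TAD anchors. Intra-TAD anchors made up 14.7% of the 75 CTCF peaks (interval 8.39% to 24.4%), against 11.8% of all CTCF peaks. TAD anchors made up 4% (interval 1.37% to 11.1%), against 7.64%, so both background shares lay within the intervals. Each of the 14 overlapped a Rad21 peak, as did 92.2% of all TAD anchors and 96.8% of all intra-TAD anchors. The authors chose intra-TAD anchors in part by CTCF and Rad21 strength, so the strength of these is a description. TAD anchors were chosen by motif, presence in every CTCF library and distance to a TAD boundary, without Rad21.

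Around Srebf2, intra-TAD anchors lay 40.1 kb, 8.52 kb and 7.89 kb upstream and 18.2 kb and 89.5 kb downstream of the start. The anchor 8.52 kb upstream, in an intron of Ccdc134, scored 4060 for CTCF and 993 for Rad21. The anchor 18.2 kb downstream, in an intron of Srebf2 itself, scored 5196 and 1067. The anchor 89.5 kb downstream, in an intron of Cenpm, a gene for a centromere protein, scored 6023 for CTCF and 6609 for Rad21, the strongest Rad21 peak of all 6 windows. At each of these 5 anchors Rad21 was stronger, from 546 to 6609, than the 180 found at the Srebf2 start.

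Around Fdps, intra-TAD anchors lay 11.1 kb and 14.3 kb downstream of the start, both beyond the end of the gene and in Rusc1. The nearer one, in a coding exon of Rusc1, scored 9088 for CTCF with 1050 fragments, the strongest CTCF peak of the windows, and 2450 for Rad21. A site 30.6 kb upstream, near Pklr, the liver pyruvate kinase gene, was an other CAC site with scores of 1761 and 1449. Around Idi1 an intra-TAD anchor 14.3 kb upstream, at the start of the neighbouring gene Wdr37, scored 8871 for CTCF and 1804 for Rad21. A TAD anchor 37.8 kb upstream of Idi1 was weaker, at 780 and 209.

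Around Sqle, the start itself was a TAD anchor, a TAD anchor lay 11.3 kb upstream and an intra-TAD anchor 23.4 kb upstream. The upstream anchors scored 2379 and 2102 for CTCF and 1058 and 1689 for Rad21. The 3 anchors thus had CTCF scores between 2102 and 2770, while the Rad21 score at the start, 179, was below those of both upstream anchors. Around Insig1, intra-TAD anchors lay 19.3 kb and 22.7 kb downstream, with CTCF scores of 1117 and 3451 and Rad21 scores of 966 and 1490. The Lss window held no anchor. Its strongest CTCF peak, an other CAC site 18.2 kb upstream in an intron of Mcm3ap, scored 2775 with a Rad21 score of 180, and its strongest Rad21 peak scored 1581 in a coding exon of Lss 19.1 kb from the start, where CTCF scored 856.

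**Figure D4:**
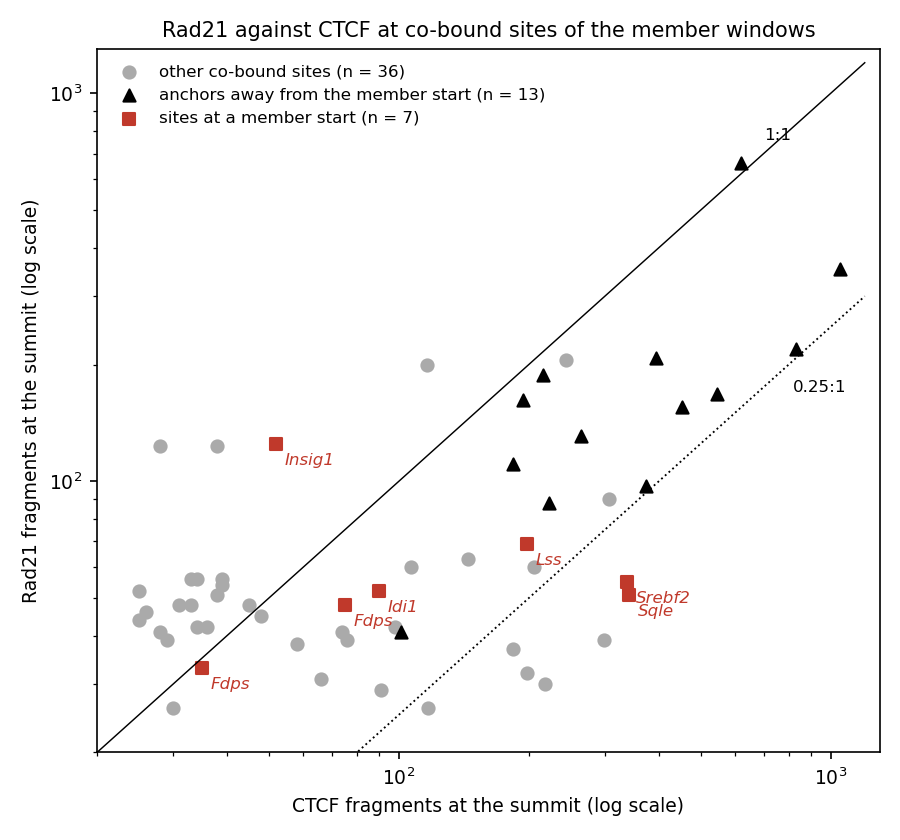
Rad21 against CTCF fragments at the summit of the 56 co-bound CTCF peaks in the 6 windows, both on log scales. Squares are the 7 peaks at a member start, triangles the 13 anchors away from it and circles the other 36; the solid line is equal numbers and the dotted line 0.25 Rad21 fragments per CTCF fragment, and Sqle, Srebf2 and 5 of the circles lie below the dotted line, while the 13 anchors lie above it.

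At the 13 anchors away from a member start, Rad21 per CTCF fragments ranged from 0.259 to 1.06 with a median of 0.406, near the median of 0.423 over all 14167 co-bound anchors. The Sqle start (0.149) and the Srebf2 start (0.163) were below the lowest of these 13. Such values were not particular to these starts, since 5 of the 36 co-bound sites of the windows that were neither anchors nor at a member start had a ratio below 0.25. The lowest of these was 0.130, at the site 18.2 kb upstream of Lss. Over all genes, 13.3% of co-bound sites at starts and 14.1% of all 51621 co-bound sites were below 0.25.

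The nearest anchor on each side of the 5′ start, at any distance, formed a convergent pair for 3 of the 6 genes (Fdps, Srebf2 and Insig1), against 34.6% of 21989 protein-coding genes with an anchor on both sides. The count depended on the anchor class. With TAD anchors alone it was 5 of 6 (all but Insig1), against 65.8% of 21876 genes, and with intra-TAD anchors alone it was 3 of 6, against 20.4% of 21875 genes. No interval was computed for these counts of 6 genes, so no excess over the background shares can be read from them. The pair spanned 26.1 kb around the Srebf2 start, 95.4 kb around that of Insig1 and 125 kb around that of Fdps. Both anchors pointed the same way around Sqle, 74.4 kb apart, and Lss, 648 kb apart, and around Idi1 they pointed away from each other, 311 kb apart. For Sqle the left anchor was the TAD anchor at the start itself, its midpoint only 0.103 kb upstream. The motifs of the convergent pairs are shown because their strands define the pairs, again 5′ to 3′ on the motif strand with the 19 motif bases in capitals.
Srebf2 left, chr15:81969852-81969870, plus strand, motif score 19.3: aggttAGGCCACAAGATGGCACTCttagt
Srebf2 right, chr15:81995907-81995925, minus strand, motif score 16.7: cacagAGGACAGAAGAGGGCGCTGgatcc
Insig1 left, chr5:28321916-28321934, plus strand, motif score 20.5: aggagTGGTCACTAGGTGGCACCAgcacc
Insig1 right, chr5:28417292-28417310, minus strand, motif score 10.5: atcccTCTACACTGGAGGGAGCCAtatgc
Fdps left, chr3:88894760-88894778, plus strand, motif score 18.7: cccacCCTCCAACAGGGGGCGCCCgtcgg
Fdps right, chr3:89020007-89020025, minus strand, motif score 17.97: cctatGTCCCACCAGGTGGCGCAAgggag
The right anchor of the Srebf2 pair lies within the gene, so that pair holds the start but not the whole of Srebf2. The second anchor downstream of Insig1, 22.7 kb from its start, held the highest motif score among the anchors of the windows, 27.2, with 18 of the 19 bases equal to the most frequent letters of the matrix: tactgTGGCCACCAGGGGGCGCTGatgct (chr5:28420669-28420687, minus strand). At the 14 anchors of the windows the Rad21 summit lay downstream of the CTCF summit along the motif at 11 (78.6%, interval 52.4% to 92.4%), near the 75.6% found over all 14167 co-bound anchors. The median shift was 31.5 bp over the 14 and 20 bp over all.

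Of the 64 Rad21 peaks, 11 lacked CTCF (17.2%, interval 9.88% to 28.2%), against 22.7% of all Rad21 peaks, a share within that interval. This share depended on the overlap rule. With a CTCF summit required within 100 bp, 27 lacked CTCF (42.2%, interval 30.9% to 54.4%), against 36.8% of all Rad21 peaks, and with 50% reciprocal overlap 29 did (45.3%, interval 33.7% to 57.4%), against 33.7%. The peaks described next are the 11 that shared no base with a CTCF peak. Of these, 5 were around Insig1, 3 around Fdps, 2 around Srebf2, 1 around Lss and 0 around Sqle and Idi1. The 0 of 6 around Sqle and 0 of 4 around Idi1 have upper bounds of 39.0% and 49.0%. Without the Insig1 window, 6 of 50 Rad21 peaks (12%) lacked CTCF. Of the 11, 7 were intergenic and 4 were intronic.

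All 5 CNC peaks of Insig1 were upstream of it in intergenic DNA, with the Insig1 start as the nearest coding start. They lay 10.6, 24.2, 30.4, 33.0 and 39.3 kb from it, with scores of 72, 109, 63, 49 and 194. The peak 39.3 kb upstream had the highest score of the CNC peaks, with 55 fragments, while a CNC peak of Fdps with a score of 44 had 58. Between them, at 15.8, 17.02 and 38.5 kb upstream, Rad21 peaks that scored 159, 95 and 111 overlapped CTCF peaks that scored from 35 to 90. In the Lss window a Rad21 peak that scored 607 with 123 fragments, 38.4 kb downstream, overlapped CTCF peaks that scored 121 and 49, and the Lss CNC peak, 62.8 kb downstream between Ftcd and Col6a2, scored 146. The CNC peaks of Srebf2, with scores of 75 and 103, were in its own introns, 19.3 kb and 37.7 kb from the start. Those of Fdps scored 44, 55 and 61.

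The median score of Rad21 peaks in the windows was 180 with CTCF (n = 53) and 72 without (n = 11), a ratio of 2.5, against medians of 245 and 65 over all Rad21 peaks. In fragments at the summit the medians were 52 and 44, so the gap was smaller on that scale, 1.18 times. Over all Rad21 peaks the medians were 58 and 29 fragments. A Rad21 peak overlapped 56 of the 75 CTCF peaks (74.7%, interval 63.8% to 83.1%), against 67.3% of all CTCF peaks, a share within that interval. For CTCF peaks of the windows the median score was 484.5 with Rad21 (n = 56) and 52 without (n = 19), against 777 and 107 over all CTCF peaks, so both were lower in the windows. Of the 75 CTCF peaks, 35 (46.7%, interval 35.8% to 57.8%) were not in the class list, against 31.6% of all CTCF peaks, and these scored 35 to 141. Of the 5 sites classed as lone CTCF, 2 shared bases with a pooled Rad21 peak (Insig1, 17.3 kb upstream, and Lss, 38.5 kb downstream), as did 15.8% of all lone CTCF sites.

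Of 16 further genes of cholesterol synthesis and its control, chosen with earlier results of these data known, 15 had a CTCF peak at a start, 15 had a Rad21 peak and 14 had both, against 55.1%, 52.3% and 50.1% of all genes. A start-site Rad21 peak that lacked CTCF was present at 4 of them, against 8.94% of all genes. With a CTCF summit required within 100 bp it was present at 8 of the 16, against 27.0%, and with 50% reciprocal overlap at 9, against 20.5%. By the rule of 1 shared base, under which the 6 members had both peaks and no CNC peak at a start, the same was found at 11 of the 16, against 43.3% of all protein-coding genes: Acat2, Mvk, Mvd, Ggps1, Fdft1, Cyp51, Tm7sf2, Sc4mol, Hsd17b7, Ebp and Insig2. The nearest anchors formed a convergent pair at 9 of the 16, against 34.6% of the genes with an anchor on both sides. These pairs spanned from 32.03 kb (Pmvk) to 2483 kb (Ebp). Of the genes with such a pair, Ebp, Nsdhl, Ggps1 and Insig2 had no anchor in the window. An anchor lay in the window of 10 of the 16, against 65.1% of all genes. The windows of the 16 had a median of 7.34 CTCF peaks per 100 kb, against 10.8 for the 6 members and 5.58 for all genes.

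Hmgcs1, which encodes the cytosolic HMG-CoA synthase, an early step of the pathway, was not analysed here for peaks. It was not found by name in GENCODE vM1, the annotation used here, its RefSeq promoter matched that assembly at 2 places, neither on a numbered or sex chromosome, and the pooled lists held 0 peaks on unplaced sequence. Its promoter letters alone are given above.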

How the data were processed

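ChIP-seq of male CD-1 mouse liver gave 4 CTCF and 3 Rad21 libraries. For each factor the authors joined the raw reads of its libraries, aligned them to mm9 with Bowtie2 and ran MACS2, as the study's methods state. The deposited score is 10 times the −log10 q-value cut to a whole number, and the deposited fold is the ratio of summit fragments to the local background, after 1 was added to each. The −log10 p-value that was deposited belongs to the summit, and strong signal nearby raises the background behind it. The authors also sorted CTCF sites into classes and gave each a motif score (log-odds). Values per library and their depth were not used here.

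The members, lists, motifs and measures were chosen with earlier results of these data known. Fragments at the summit were solved from fold and p-value, whole within 0.05 for 99.996% of CTCF and 99.997% of Rad21 peaks; the step was tested on simulated data. Starts of protein-coding transcripts came from GENCODE vM1 on NCBIM37, and all genes were treated alike for the background shares. CTCF motifs were placed with the matrix in the study's code, and the strand matched the deposited one at 22 of 22 sites. Peaks named are those at a member start, the strongest CTCF, Rad21 and CNC peak of each window and its anchors; others were chosen after their values were seen. A gene of the pathway list is not reported here, for a reason unrelated to its values. Alternatives were other flanks, zones, score limits, membership and co-binding rules, anchor classes and measures of strength. Python 3.11.15, NumPy 2.4.6, pandas 2.3.3, SciPy 1.17.1, pysam 0.24.0 and Matplotlib 3.10.9 were used.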

Additional observations from a re-analysis of the deposited data

How the results depend on the processing

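Of 49 values recomputed under an alternative, 34 stayed close to the value reported (counts within 1.5 times, the share of Rad21 peaks without CTCF within its interval) and 15 moved. With a flank of 20 kb the windows held 48 CTCF peaks, 40 Rad21 peaks and 4 Rad21 peaks without CTCF, and with a flank of 100 kb they held 17 Rad21 peaks without CTCF and 22 loop anchors; these changes follow from the length of sequence searched. With a score of at least 100 there were 44 CTCF peaks. The count of Rad21 peaks without CTCF was again 11 at that limit, but these were not the same peaks. Of those reported, only the peaks that scored 194, 146, 109 and 103 reached the limit. The others had lost a CTCF partner that scored below it. The anchor count could not change at that limit, as no anchor scored below 780 for CTCF. With CTCF summits within 100 bp, 27 Rad21 peaks (42.2%, against 36.8% of all) lacked CTCF and 5 members had such a peak at a start, and with 50% reciprocal overlap 29 (45.3%, against 33.7%) and 4 did, against 27.0% and 20.5% of all genes, where the reported count was 0 of 6 (upper bound 39.0%) against 8.94%. With TAD anchors only, 5 members lay between convergent anchors, against 65.8% of genes. On the fragment scale the ratio of medians with and without CTCF was 1.18, and without the Insig1 window 6 Rad21 peaks lacked CTCF; these alternatives were chosen after seeing the data. The genes with a CTCF peak and with a Rad21 peak at a start numbered 6 under every zone, start and score alternative run. The zone of 2500 bp holds the zone of 1 kb, so it could not lower this count. Nor could the score limit of 100, as the strongest start peaks scored at least 141 for CTCF and 175 for Rad21.

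No paired analysis was possible because the lists pool all libraries of a factor. For the same reason leaving out each replicate was not run, and no peak here can be tied to a liver. Peaks near the lower limit of the lists (member scores from 35) rest on few fragments, and a site missing from a list was not detected at this depth, which the lists cannot tell apart from unbound.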
